A study of Mus musculus with 2 samples.

Results

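The genes described here are 5 members of the mouse *Cd209* family (*Cd209a*, *Cd209b*, *Cd209d*, *Cd209f* and *Cd209g*) and 4 further C-type lectin receptors of macrophages (*Clec10a*, *Mgl2*, *Mrc1* and *Clec4n*), 9 of the 54838 genes in the count tables. They were taken by name, and all 9 had UMIs in both libraries. Macrophages had been sorted as CD64+ CD45int cells from pooled sciatic nerves of 19 male Flt3-Cre LSL-YFP fl/fl mice aged 10 to 12 weeks, and the YFP− and YFP+ cells had each been made into 1 droplet-based 3′ single-cell library. Both groups carried the same alleles and received no treatment. In these mice Cre is driven from *Flt3*, so YFP marks cells that descend from *Flt3*-expressing blood progenitors, and a YFP− cell is one in which the reporter was not switched on. With 1 library of pooled mice per group no test of origin can be made, and every interval below covers counting error only.

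C-type lectin receptors bind sugars on microbes, dying cells and glycoproteins through a calcium-dependent domain, and many of them take up what they bind. The *Cd209* genes are the mouse relatives of human DC-SIGN and form a gene cluster. *Cd209b* encodes SIGN-R1, known from macrophages of the splenic marginal zone, and *Cd209a* is known from dendritic cells and monocytes. *Clec10a* and *Mgl2* encode the galactose and N-acetylgalactosamine binding lectins MGL1 and MGL2, *Mrc1* encodes the mannose receptor CD206, and *Clec4n* encodes Dectin-2, which signals through the adaptor encoded by *Fcer1g*.

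Cells were barcodes with at least 500 UMIs and 200 genes, which gave 1045 YFP− and 4053 YFP+ cells. The YFP− cells held 2418044 UMIs (median 2233 per cell) and the YFP+ cells 6747554 UMIs (median 1484 per cell). The libraries had 7 called barcodes in common. Both libraries had UMIs of all 8 macrophage markers listed, among them *Fcgr1*, which encodes the CD64 of the sort, and 102 cells formed a cluster led by genes of mural cells. Leaving out the shared barcodes or the mural-like cells kept the same number of lectins past the 1.5-fold limit between libraries. Levels are in CPM, the UMIs of a gene in the summed cells scaled to a total of 1000000. In a 3′ library each UMI stands for 1 captured molecule whatever the length of the gene, so levels were not divided by length, although capture can differ between genes.

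All 7 *Cd209* genes of the mouse lie within 394 kb of chromosome 8 (GENCODE, GRCm38), where *Cd209a* spans chr8:3743397-3748984, *Cd209d* chr8:3871824-3878555, *Cd209b* chr8:3917655-3926844 and *Cd209f* chr8:4102787-4105835, all on the minus strand. *Cd209g* spans chr8:4134098-4137707 on the plus strand, so it points away from *Cd209f*, and the longest coding transcripts of both genes start 28.9 kb apart. The span of *Cd209g* begins with a transcript that keeps an intron and has no coding sequence, and its coding transcript starts further in, at position 4134652. *Mgl2* (chr11:70130329-70137550) and *Clec10a* (chr11:70156197-70170834) are neighbours on the plus strand, 18.6 kb apart. *Mrc1* spans chr2:14229392-14332057 and *Clec4n* spans chr6:123229843-123247021, both on the plus strand. Aligned coding sequences were 89.2% identical between *Cd209f* and *Cd209g* and 90.4% identical between *Clec10a* and *Mgl2*, whereas the other pairs of *Cd209* genes were 61.6% to 76.9% identical. Reads of a 3′ library come from the ends of transcripts. In the last 500 bases of the longest coding transcript, the 5 *Cd209* genes shared no stretch of 50 bases with a transcript of another gene. *Clec10a* shared 20.4% of such stretches with *Mgl2*, so its reads could in part be given to *Mgl2* or left uncounted by the mapping. The end of *Mgl2* shared none with *Clec10a*, but 4.21% of its stretches were in transcripts of other genes, *Colec12* among them. The values of *Clec10a* and *Mgl2* are uncertain to that extent.

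The regions before the RefSeq starts of the 5 *Cd209* genes described here are shown because each had a higher level in a small cluster, described below, than in the other cells. *Cd209a* was higher there by the least, and most of its UMIs lay in other cells. Any link between these sequences and the levels was not tested. Windows of 250 bases before each start (GRCm38.p6) were available for 7 of the 9 lectins, and for all 7 *Cd209* genes. *Cd209f* and *Cd209g* had an identical run of 154 bases, from −154 in the *Cd209f* window and from −168 in the *Cd209g* window, while no other pair among the windows compared shared a run of more than 12 bases. The windows of *Cd209b* and *Cd209d* aligned over 85 columns with 74.1% identity, and those of *Cd209d* and *Cd209e* over 63 columns with 76.2%. The window of *Cd209a* aligned with that of *Cd209d* over 51 columns with 74.5% identity and with that of *Cd209b* over 40 columns with 77.5%. It shared an identical run of at most 10 bases with any other. The RefSeq starts need not be those of GENCODE, and the window of *Cd209g* lies inside the GENCODE span of the gene, just before its coding transcript. The sequences are printed 5′ to 3′ on the strand of the gene, without bases that GENCODE assigns to an untranslated exon of a coding transcript. They are chr8:4105836-4106014 (minus strand) for *Cd209f*, chr8:4134486-4134651 (plus strand) for *Cd209g*, chr8:3878556-3878749 (minus strand) for *Cd209d*, chr8:3926842-3927091 (minus strand) for *Cd209b* and chr8:3748985-3749234 (minus strand) for *Cd209a*. Capitals mark the printed part of the identical run in *Cd209f* and *Cd209g*, and the stretch of *Cd209d* and *Cd209b* that aligned between them. The shorter alignments with *Cd209a* are not marked.
Cd209f: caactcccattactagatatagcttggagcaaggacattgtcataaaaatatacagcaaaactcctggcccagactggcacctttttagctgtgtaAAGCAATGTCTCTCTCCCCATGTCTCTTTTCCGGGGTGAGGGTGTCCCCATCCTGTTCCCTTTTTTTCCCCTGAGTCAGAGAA
Cd209g: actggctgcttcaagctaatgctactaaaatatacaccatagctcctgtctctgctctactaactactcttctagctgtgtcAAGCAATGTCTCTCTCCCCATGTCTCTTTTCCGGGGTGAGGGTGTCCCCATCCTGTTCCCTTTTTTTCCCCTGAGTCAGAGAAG
Cd209d: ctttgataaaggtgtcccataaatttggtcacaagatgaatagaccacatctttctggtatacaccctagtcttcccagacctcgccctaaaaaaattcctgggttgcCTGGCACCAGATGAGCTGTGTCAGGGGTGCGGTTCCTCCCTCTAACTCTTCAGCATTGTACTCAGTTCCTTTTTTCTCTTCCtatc
Cd209b: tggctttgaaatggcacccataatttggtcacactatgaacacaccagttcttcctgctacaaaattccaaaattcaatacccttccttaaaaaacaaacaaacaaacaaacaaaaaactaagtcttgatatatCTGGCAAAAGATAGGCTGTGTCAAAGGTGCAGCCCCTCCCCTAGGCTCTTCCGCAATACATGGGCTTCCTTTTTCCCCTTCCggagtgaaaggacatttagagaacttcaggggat
Cd209a: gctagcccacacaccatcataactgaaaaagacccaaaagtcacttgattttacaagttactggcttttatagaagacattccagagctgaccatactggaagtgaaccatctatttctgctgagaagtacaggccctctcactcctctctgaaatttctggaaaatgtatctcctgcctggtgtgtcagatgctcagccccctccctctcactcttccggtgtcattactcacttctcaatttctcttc

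The shared run of *Cd209f* and *Cd209g* held TGAGTCA, a match to the AP-1 motif TGANTCA, starting at −83 and −97. This motif, searched on both strands, was found in none of the other 5 *Cd209* windows and in 6.75% of all 32851 windows of the same length. The windows also held TATAAA nearer to the start, at −29 and −43 and so beyond the printed part, which 7.59% of all windows hold on the strand of the gene. The motifs GAGGAAG (PU.1) and TGCTGAC (MAF), which are present in 10.6% and 3.81% of all windows, were not found in any *Cd209* window. A match is a description of the letters only.

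Levels in the libraries were compared to ask how far origin goes with lectin expression in nerve macrophages. Among the *Cd209* genes, *Cd209a* was the highest in both libraries, with 58.7 CPM in YFP− cells (142 UMIs, 95% interval 49.5 to 69.2) and 47.7 CPM in YFP+ cells (322 UMIs, 42.7 to 53.2). *Cd209f* followed with 28.9 and 22.5 CPM, then *Cd209d* with 16.5 and 13.2 CPM, *Cd209g* with 14.9 and 9.04 CPM, and *Cd209b* with 7.03 and 11.6 CPM. The intervals of *Cd209d* and *Cd209g* overlapped within each library, and those of *Cd209b*, *Cd209d* and *Cd209g* overlapped in the YFP+ library, so these genes have no clear order there. *Cd209c* and *Cd209e*, the remaining family genes, had 3 and 7 UMIs in the YFP− cells and 5 and 8 UMIs in the YFP+ cells. The other lectins were far more abundant. *Mgl2* had 1092 CPM in YFP− against 1104 CPM in YFP+ cells, *Mrc1* at 996 and 894 CPM, and *Clec10a* at 244 and 151 CPM, whereas *Clec4n* had only 25.6 and 14.5 CPM.

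*Clec10a* was 1.61-fold higher in YFP− than in YFP+ cells, with 590 and 1022 UMIs. The log2 ratio of YFP+ over YFP− was −0.68 (95% interval −0.83 to −0.54). *Clec4n*, the Dectin-2 gene, was 1.72-fold higher in YFP− cells, from 62 and 98 UMIs (−0.78, −1.23 to −0.32). These were the 2 lectins lower in YFP+ cells by at least 1.5-fold among the 6 that reached a mean of 20 CPM, and no lectin was higher by that much. Over all 5531 genes that reached this mean, 5.77% were lower and 1.54% higher in YFP+ cells by 1.5-fold. *Clec4n* only just reached the mean of 20 CPM. *Mrc1* differed by −0.16 (−0.22 to −0.09), and *Mgl2* by 0.02 (−0.05 to 0.08). Of the *Cd209* genes, *Cd209a* (−0.29, −0.58 to −0.00) and *Cd209g* (−0.66, −1.23 to −0.08) had intervals below 0, whereas those of *Cd209b* (0.65, −0.05 to 1.37), *Cd209d* (−0.31, −0.83 to 0.23) and *Cd209f* (−0.35, −0.75 to 0.07) included 0. Of the 36 *Cd209g* UMIs in YFP− cells, 13 were in a single cell, and the variance across cells was 5.92 times the mean. The intervals do not cover such uneven spread over cells. With cells thinned to 500 UMIs *Cd209f* was at 0.45, from 11 YFP− and 40 YFP+ cells with a UMI, and *Cd209b* at −0.10. With equal weight for each cell *Cd209f* was at −0.36 and *Cd209b* also at −0.36. The direction of *Cd209b* thus depended on how cells were weighted. That of *Cd209f* changed with the thinning but not with equal weights. Thinning also gives each cell equal weight, but it was a single random draw of UMIs, so the value of 0.45 rests on that draw.

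**Figure D1:**
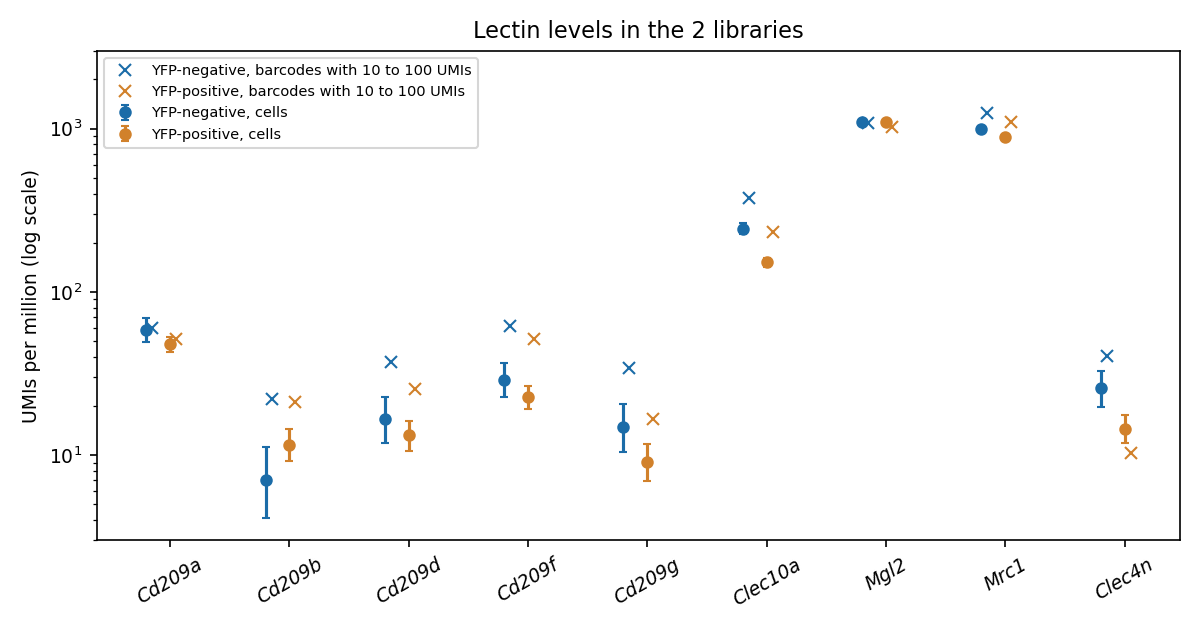
Summed level of each lectin in CPM (log axis) in the cells of the YFP− and YFP+ libraries (circles, bars are exact Poisson 95% intervals) and in barcodes with 10 to 100 UMIs of the same libraries (crosses). *Mgl2* and *Mrc1* lie near 1000 CPM and the *Cd209* genes between 7.03 and 58.7 CPM, and most crosses lie at or above the circles.

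RNA outside cells was measured in barcodes with 10 to 100 UMIs. In it *Cd209f* had 61.6 CPM (YFP−) and 51.6 CPM (YFP+), above its level in cells, and *Cd209a* was at 60.5 and 51.1 CPM, about its level in cells. *Clec10a* was at 378 and 233 CPM there, and its log2 ratio between the libraries in these barcodes, −0.69 (−0.90 to −0.49), was nearly that of the cells. *Clec4n* was at 40.7 and 10.3 CPM. The part of such RNA in the library ratios was not tested. Sequencing depth also moved with the library. Split by UMIs per cell, *Clec10a* was lower in YFP+ cells in each of 4 bins, with log2 ratios of −1.64 at 500 to 1000 UMIs, −1.02 at 1000 to 2000, −0.59 at 2000 to 4000 and −1.75 above. *Mgl2* had a ratio of −0.58 in the shallowest cells and 0.26 in cells of 2000 to 4000 UMIs, so its equality in the sum was made of unequal bins.

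To compare shares of cells, each cell was thinned to 500 UMIs. *Mrc1* was then seen in 41.6% of YFP− and 34.5% of YFP+ cells, *Mgl2* in 38.9% and 37.6%, and *Clec10a* in 12.5% (10.6 to 14.7) and 7.25% (6.47 to 8.10). In the mural-like cells, which should lack these genes and had a median of 983 UMIs, the same shares were 11.8%, 19.6% and 1.96%. *Cd209a* was seen in 2.58% and 2.25% of cells, *Cd209f* in 1.1% and 0.99%, *Cd209d* in 0.77% and 0.67%, *Cd209g* in 0.57% and 0.37%, *Cd209b* in 0.29% and 0.39%, and *Clec4n* in 1.63% and 0.79%. None of these 6 genes was seen in the 102 thinned mural-like cells, which allows a share of up to 3.55%. Cells filled from the low-UMI barcodes alone would have shown *Cd209a* in 2.98% and 2.52%, *Cd209f* in 3.03% and 2.55%, *Clec10a* in 17.2% and 11% and *Mrc1* in 46.4% and 42.1%. The shares of all 9 lectins were below this level, except that of *Clec4n* in the YFP+ library, which would have been 0.515%. *Mrc1*, *Mgl2* and *Clec10a* had higher shares in each library than in mural-like cells, although for *Clec10a* the interval of the mural-like cells (0.24% to 6.90%) overlapped that of the YFP+ library. The *Cd209* genes and *Clec4n* were too rare to be told apart from mural-like cells, and their shares over all cells were not read as shares of expressing cells. Without thinning, *Cd209a* had a UMI in 9.28% of YFP− and 6.0% of YFP+ cells.

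The *Cd209* UMIs were far from evenly spread over cells. Cells were clustered without the 9 lectins and without *Cd209c* and *Cd209e*, which gave 10 clusters, and the cluster with the highest level of *Fcna* was described first. *Fcna* encodes ficolin A, a secreted lectin that starts the lectin pathway of complement. This cluster of 191 cells (median 1608 UMIs) was led by *Fcna*, *Ccl8*, *Retnla*, *Ednrb*, *C4b* and *Ly6e*, and took 66 cells of the YFP− library (6.32%, 4.92 to 7.97) and 125 cells of the YFP+ library (3.08%, 2.57 to 3.66). It received no cell type name because *Fcna* alone among its 10 leading genes was on a marker list. It is called the *Fcna*-high cluster below.

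*Cd209g* was at 225 CPM in the *Fcna*-high cluster (75 UMIs, 177 to 282) and at 2.49 CPM in all other cells, a log2 ratio of 6.02 (5.45 to 6.57). *Cd209f* was at 445 CPM (148 UMIs, 376 to 522) and 8.38 CPM, a log2 ratio of 5.57 (5.18 to 5.96). *Cd209d* was at 174 and 8.04 CPM (4.28, 3.78 to 4.77) and *Cd209b* at 84.1 and 7.59 CPM (3.31, 2.64 to 3.93). *Cd209a* was at 183 and 45.6 CPM (1.98, 1.57 to 2.37). The order of the genes therefore changed with the cells. *Cd209a* had the highest level of the family outside the cluster, and *Cd209f* had the highest within it. The cluster, with 3.75% of all cells, held 77.3% of the *Cd209g* UMIs, 66.7% of those of *Cd209f*, 45.0% of those of *Cd209d*, 29.5% of those of *Cd209b* and 13.1% of those of *Cd209a*. Another 29.5% of the *Cd209b* UMIs were in the cluster led by early-response genes, numbered 3, which was far larger. It held 16.1% of all cells and 1830903 UMIs of all genes, against 332862 in the *Fcna*-high cluster. All 28 of these *Cd209b* UMIs were from the YFP+ library, since the 156 YFP− cells of cluster 3 had none. The UMIs of *Cd209a* were spread broadly, with 28.2% and 24.4% of them in the clusters numbered 3 and 2. Cluster 2 held 19.2% of all cells and 1912582 UMIs of all genes.

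The same contrast was seen in each library by itself. *Cd209f* was at 368 CPM in the *Fcna*-high cells of the YFP− library against 10.0 CPM in its other cells, and at 492 against 7.80 CPM in the YFP+ library. *Cd209g* was at 227 against 3.06 CPM in YFP− and at 224 against 2.29 CPM in YFP+ cells. The level of 227 CPM rests on 29 UMIs, 13 of them in a single cell, and that of 224 CPM on 46 UMIs. The near equality of these levels therefore depends on that cell. For each of the 5 *Cd209* genes, the level outside the cluster was below that in the low-UMI barcodes of the same library. Within the cluster, the level of each was above it. *Cd209a* was at 51.5 CPM (YFP−) and 43.6 CPM (YFP+) outside the cluster, against 60.5 and 51.1 CPM in these barcodes. The part of RNA outside cells in its UMIs in other clusters, and in the split by *Cd209a* below, was not tested.

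**Figure D2:**
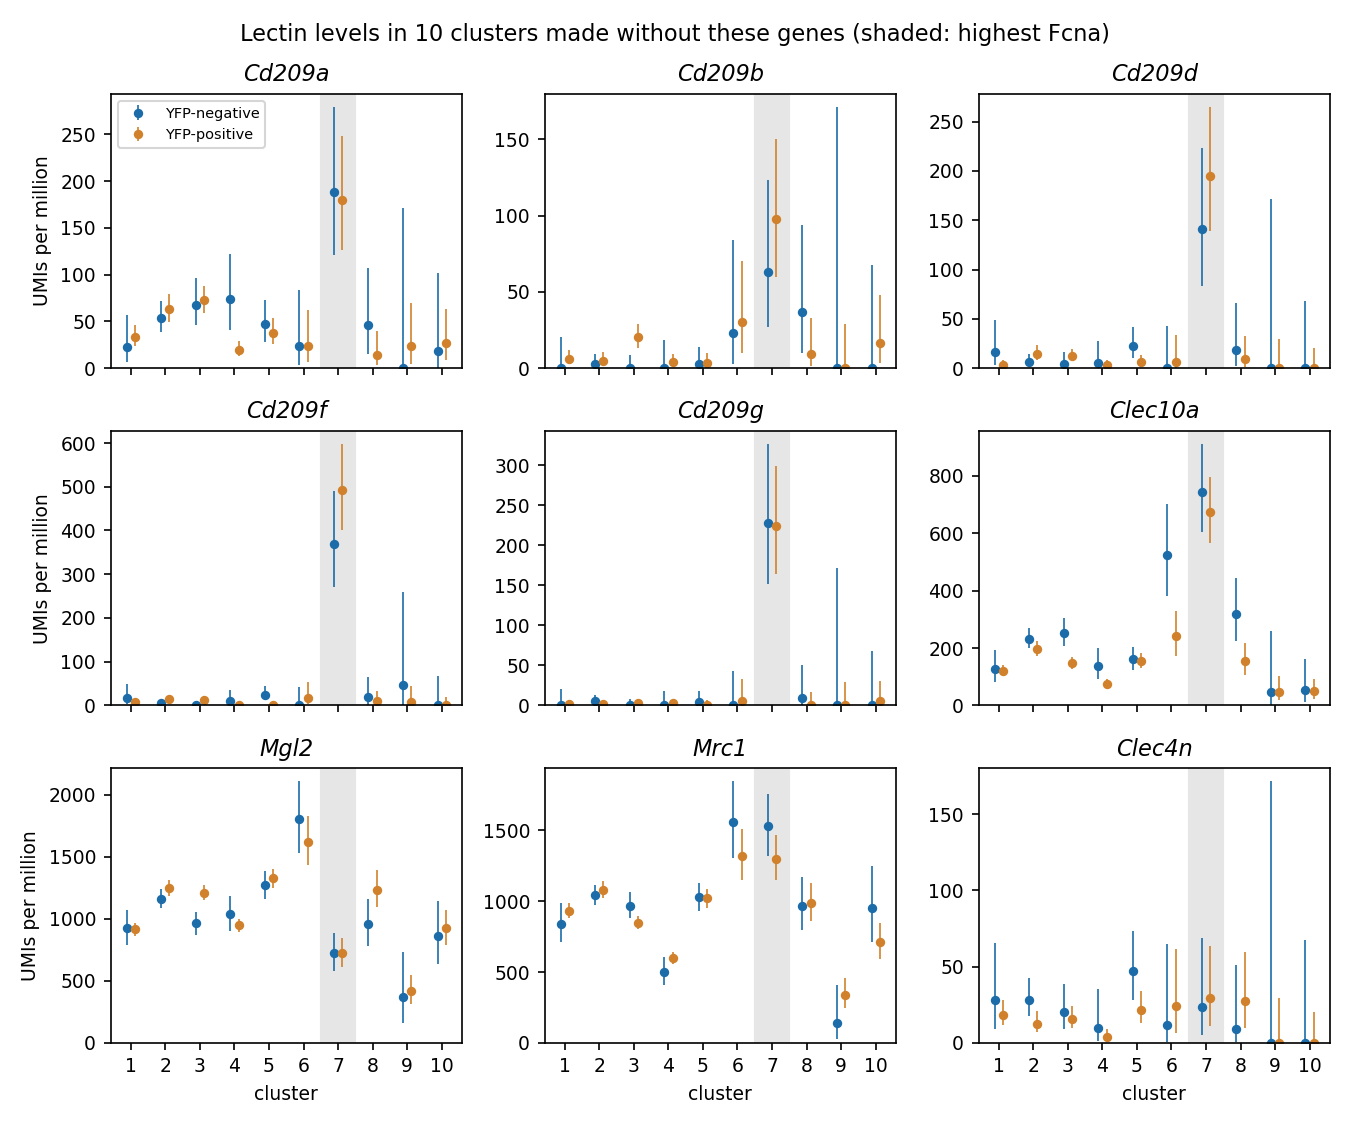
Level of each lectin in CPM in the 10 clusters, numbered by size, in the YFP− and YFP+ libraries (points, bars are exact Poisson 95% intervals, each panel has its own axis from 0). In the shaded *Fcna*-high cluster *Cd209f* reached 368 and 492 CPM and *Mgl2* stood at 721 CPM in both libraries, below its level in the other cells.

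The other lectins did not share this pattern to the same degree. *Clec10a* was higher in the *Fcna*-high cluster, at 700 CPM against 156 CPM elsewhere (2.16, 1.95 to 2.36), and *Mrc1* was at 1388 against 903 CPM (0.62, 0.48 to 0.75). *Mgl2*, the neighbour and closest relative of *Clec10a*, was lower there, at 721 against 1115 CPM (−0.63, −0.82 to −0.44). *Clec4n* had 9 UMIs in the cluster, and its ratio of 0.63 (−0.46 to 1.57) included 0. At a clustering resolution of 0.4, at 1.2 and with the listed lectins and scavenger genes also left out, the *Clec4n* ratio was −0.16, 0.01 and −0.09, so its direction depended on the clustering. At resolution 1.2 the ratio was 0.29 for *Mrc1* and −0.54 for *Mgl2*, whereas *Clec10a* and the 5 *Cd209* genes remained more than 1.5-fold higher in each of these clusterings. The cluster had been chosen by *Fcna* in the same cells, so these values describe it and are no test. Among the remaining clusters, the monocyte-like cluster of 745 cells, led by *Ccr2* and *S100a4*, had the lowest *Mrc1* level outside the mural-like cluster, 587 CPM, with *Clec10a* at 83.2 CPM and *Clec4n* at 4.73 CPM. *Mgl2* was highest, at 1684 CPM, in an unnamed cluster of 290 shallow cells (median 776 UMIs).

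Cells with several *Cd209* UMIs made up a larger share of the *Fcna*-high cluster than of the other cells, although more of them in number lay outside it. At least 2 such UMIs were present in 33.3% of its YFP− cells (22 of 66, 22.2 to 46.0) and 40.0% of its YFP+ cells (50 of 125, 31.3 to 49.1), against 3.68% (2.59 to 5.05) and 2.01% (1.60 to 2.50) of the other cells. The highest sums in a cell were 19 and 13 UMIs in the cluster and 11 and 9 UMIs outside. UMIs of at least 2 different *Cd209* genes were present in 17 and 40 cells of the cluster, or 25.8% and 32.0%, and in 1.53% and 0.89% of the other cells. Among the 66 YFP− cells in the cluster 33, and among its 125 YFP+ cells 63, had at least 1 *Cd209* UMI. At these depths the remaining cells cannot be said to lack the genes.

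**Figure D3:**
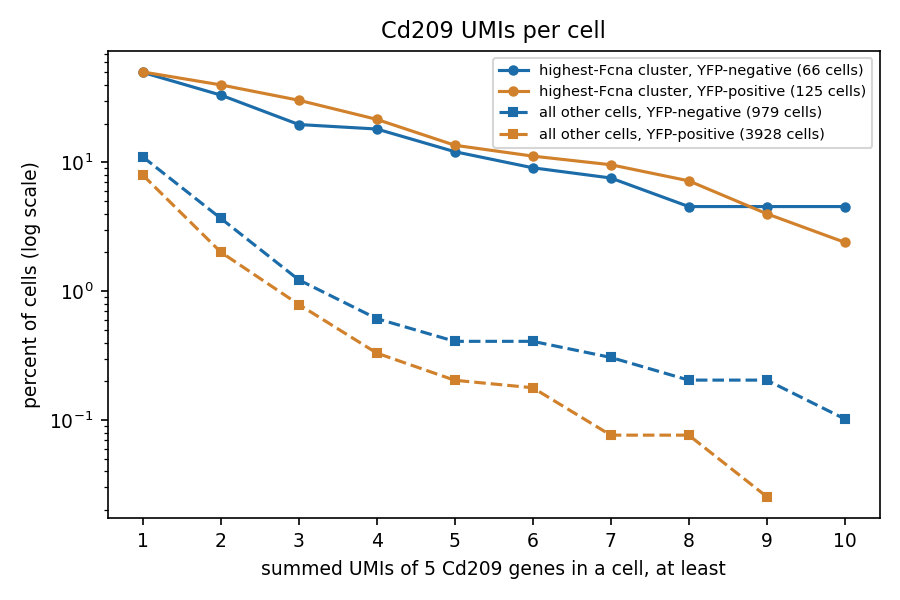
Percent of cells (log axis) that held at least the given number of summed UMIs of the 5 *Cd209* genes, in the *Fcna*-high cluster (circles) and in all other cells (squares) of each library. The share with at least 2 UMIs was 33.3% and 40.0% in the cluster and 3.68% and 2.01% outside.

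Among pairs seen together in at least 3 thinned cells, *Cd209f* with *Cd209g* had the highest ratio to its single shares in both libraries. In the YFP− library 3 cells had both where 0.0632 were expected from their separate shares, a ratio of 47.5 (9.80 to 139). In the YFP+ library 7 cells had both where 0.148 were expected, a ratio of 47.3 (19.0 to 97.4). Below the minimum of 3 cells, *Cd209b* and *Cd209g* were seen together in 1 YFP− cell, a ratio of 58.1 (1.47 to 323). They were seen together in 2 YFP+ cells, a ratio of 33.8 (4.09 to 122). *Cd209d* and *Cd209f* were seen together in 5 YFP+ cells, 18.8 times the expected number (6.09 to 43.8). *Cd209a* and *Cd209g* were never seen together in thinned cells, where 0.155 and 0.337 cells were expected. For cells with UMIs of at least 2 *Cd209* genes, the ratio was 8.22 (3.55 to 16.2, 8 cells) in YFP− and 5.01 (2.80 to 8.26, 15 cells) in YFP+ cells. These ratios describe cells of 1 library each and rest on few cells. The expected numbers take the genes as spread independently over all cells of a library. The part of the *Fcna*-high cluster in these ratios was not tested.

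The genes that went with *Cd209* UMIs were read from the other genes of cells with and without such a UMI after thinning. *Clec10a* was higher in cells with a *Cd209* UMI, at 748 against 224 CPM in the YFP− library (45 against 1000 cells, log2 ratio 1.74, 1.36 to 2.1) and at 443 against 140 CPM in the YFP+ library (169 against 3884 cells, 1.66, 1.37 to 1.94). Without the *Fcna*-high cluster the ratios were 1.59 (1.07 to 2.06) and 1.0 (0.57 to 1.41). *Mrc1* differed by 0.24 (−0.05 to 0.51) and 0.21 (0.03 to 0.38), and *Mgl2* by 0.29 (0.02 to 0.55) and 0.05 (−0.12 to 0.22). Over all other genes tested in these splits 11.6% were higher and 6.06% lower by 1.5-fold in the YFP− library, and 3.6% and 2.84% in the YFP+ library. *Clec4n* had 3 UMIs in the YFP− and 13 UMIs in the YFP+ cells with a *Cd209* UMI, with ratios of 0.33 (−1.83 to 1.91) and 1.83 (0.90 to 2.66).

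The split looked different for *Cd209a* than for *Cd209b*, *Cd209d*, *Cd209f* and *Cd209g*, a division made after the values were seen. Cells with a UMI of the latter were shallower in the YFP− library (median 1191.5 against 2255 UMIs) than in the YFP+ library (1317 against 1487 UMIs), relative to the cells without, and the part of depth in these ratios was not tested. In cells with a UMI of the latter 4 genes (22 YFP− and 84 YFP+ cells), *Fcna* had log2 ratios of 3.93 (2.83 to 4.89) and 3.85 (3.21 to 4.45), *Lyve1*, the hyaluronan receptor of resident macrophages, had 2.04 and 1.49, and *Ccl24*, an eosinophil chemoattractant, had 1.71 and 2.20. The MHC class II genes that present antigen were lower in these cells, *H2-Ab1* by −1.20 (−1.48 to −0.93) and −0.30 (−0.40 to −0.20), and *Cd74*, the invariant chain, by −0.92 and −0.32. In cells with a *Cd209a* UMI (27 and 91 cells), *Fcna* had ratios of 2.28 (0.79 to 3.5) and −1.36 (−4.11 to 0.99), the latter from 1 UMI. *H2-Ab1* was at −0.01 (−0.16 to 0.13) and 0.11 (0.04 to 0.19) and *Cd74* at −0.10 and 0.02 in these cells. *Clec10a* was higher with either split, by 1.5 and 0.84 for *Cd209a* and by 1.95 and 2.15 for the other 4 genes. The 8 dendritic cell markers were too rare in cells with a *Cd209a* UMI to be compared. The best covered, *Batf3*, had 2 UMIs in the YFP− cells (33.0 against 76.8 CPM in cells without) and 7 in the YFP+ cells (47.9 against 76.0 CPM), and *Irf4* had 1 and 6 UMIs (16.5 against 21.2 CPM and 41.1 against 18.3 CPM).

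**Figure D4:**
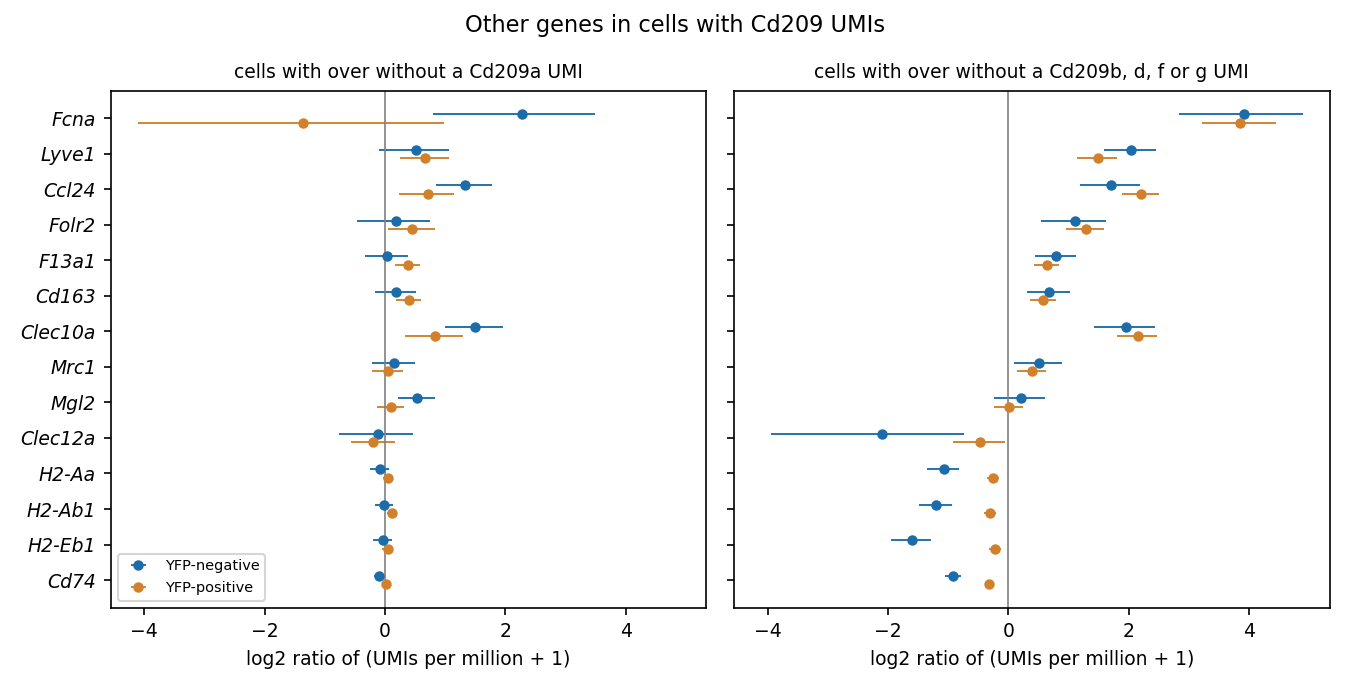
Log2 ratio of (CPM + 1) of named genes between cells with and without a UMI of *Cd209a* (left) and of *Cd209b*, *Cd209d*, *Cd209f* or *Cd209g* (right) in the YFP− and YFP+ libraries, with 95% counting intervals as bars. *Fcna* and *Lyve1* lie to the right and the MHC class II genes to the left in the right panel, where *H2-Ab1* had −1.20 and −0.30, and MHC class II genes lie near 0 in the left panel.

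Genes of the resident scavenger list were the company of the *Cd209* genes in the *Fcna*-high cluster. *Fcna* itself, which chose the cluster, was left out of the count, and the minimum of 20 CPM was set on the other cells, a choice made after the data were seen. The other genes of this list and those of the lists below were not left out of the clustering. Their counts therefore describe the cluster and are no test. Of the 13 remaining genes 11 were higher by 1.5-fold and none lower (6 of 12 in the YFP− and 11 of 13 in the YFP+ library), where 11.9% of all 5482 genes so tested were higher and 14.7% lower. With the minimum on the mean of both groups, 17% were higher and 10.4% lower. Among them were *Folr2*, the folate receptor beta, with 1088 against 278 CPM, and *Timd4*, a phosphatidylserine receptor, with 135 against 22.1 CPM. All 7 MHC class II genes were lower, with a median log2 ratio of −1.77 in the YFP− and −1.12 in the YFP+ library. All 9 early-response genes were lower as well (8 of 9 in the YFP+ library by itself), among them *Fos* at 706 against 1782 CPM and *Jun* at 391 against 1216 CPM. The 8 dendritic cell markers summed to 135 CPM in the cluster and 124 CPM elsewhere, with *Batf3* at 81.1 against 75.3 CPM, *Irf4* at 36.1 against 18.8 CPM and *Zbtb46* at 12.0 against 5.43 CPM, while *Itgax*, *Ccr7* and *Xcr1* had no UMI there and *Flt3* and *Kmo* had 1 UMI each. Of the 8 macrophage markers listed, only *Fcgr1* was lower by 1.5-fold, at 39.1 against 113 CPM, and none was higher by that much. The median log2 ratio of these 8 markers was −0.07. Of the monocyte markers *Ccr2*, a chemokine receptor, was at 33.0 against 255 CPM, whereas *S100a4* was at 210 against 99.4 CPM and *S100a6* at 379 against 317 CPM.

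By likeness across thinned cells, the genes whose counts followed the summed *Cd209* genes most closely in both libraries were *Retnla* (r = 0.23 in 1045 YFP− and 0.26 in 4053 YFP+ cells), *Ly6e*, *Fxyd2*, *C4b* and *Clec10a* (r = 0.18 and 0.11), of 3206 genes ranked. *Mrc1* had rank 298 and *Mgl2* rank 401. The cells share a library, a depth and a clustering, and correlations this weak in sparse counts are given for orientation only.

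Within the *Fcna*-high cluster the interval of the library ratio included 0 for each of the 9 lectins, and the intervals of the rarer ones were wide. The log2 ratio of YFP+ over YFP− was 0.63 (−0.60 to 1.99) for *Cd209b*, 0.46 (−0.37 to 1.35) for *Cd209d* and 0.42 (−0.10 to 0.95) for *Cd209f*. The summed *Cd209* genes were at 987 CPM in the YFP− cells of the cluster and 1189 CPM in its YFP+ cells (log2 ratio 0.27, −0.05 to 0.59), and outside it at 78.2 and 70.0 CPM (−0.16, −0.41 to 0.10). *Clec10a* was at 745 and 672 CPM inside (−0.15, −0.53 to 0.24) and at 216 and 135 CPM outside (−0.67, −0.83 to −0.51). The lower *Clec10a* of YFP+ cells thus remained without the cluster, and *Clec10a* was lower in YFP+ cells in 9 of 10 clusters. *Mgl2* was at 721 CPM inside in both libraries (−0.00, −0.38 to 0.39). *Clec4n* had 3 and 6 UMIs inside, and outside it was at 25.8 and 14.1 CPM (−0.83, −1.29 to −0.36).

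**Figure D5:**
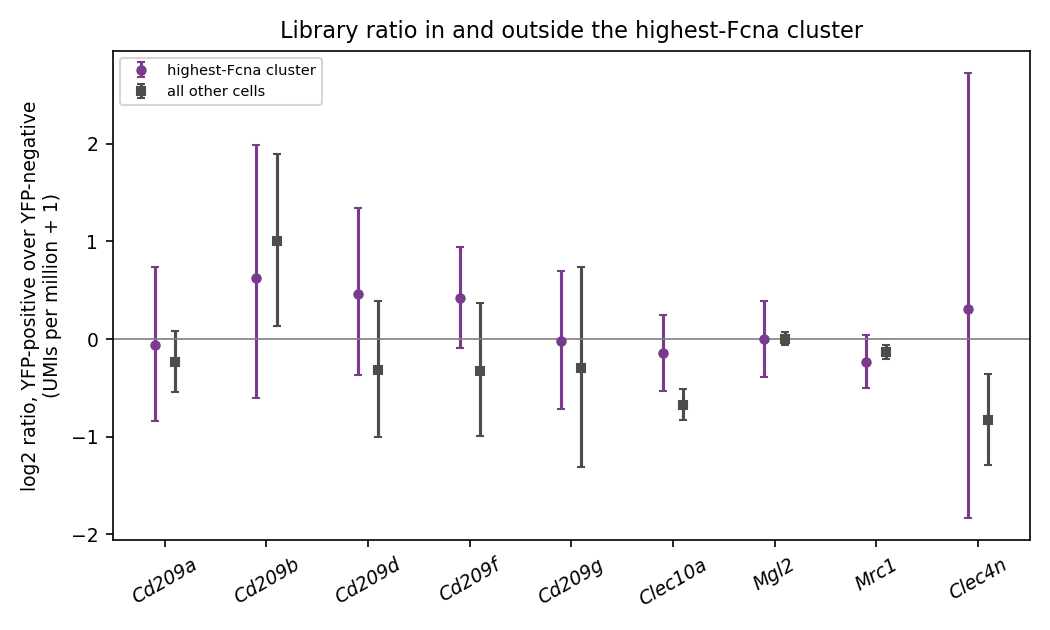
Log2 ratio of (CPM + 1) of YFP+ over YFP− cells for each lectin inside the *Fcna*-high cluster (circles) and in all other cells (squares), with 95% counting intervals as bars. *Clec10a* lies at −0.15 inside and −0.67 outside, *Mgl2* at −0.00 inside and 0.00 outside, and the bars of the rarer genes are wide.

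The other listed C-type lectins were counted from lists, 35 genes in all. Of the 12 that reached a mean of 20 CPM, 1 was lower in YFP+ cells by 1.5-fold and none higher, with a median log2 ratio of −0.01, against a median of −0.00 over all genes tested. The lower gene was *Colec12*, a scavenger receptor with a lectin domain, with 89.7 CPM in YFP− against 38.7 CPM in YFP+ cells. The Dectin-2 group held *Clec4a2* at 401 and 411 CPM, *Clec4a1* at 245 and 247 CPM and *Clec4a3* at 200 and 196 CPM. These neighbours of *Clec4n* were thus at nearly the same level in both libraries. Of the rest of the group, *Clec4b1* was at 218 and 262 CPM, and *Clec4d* (9 and 4 UMIs) and *Clec4e* (1 and 12 UMIs) were rare. In the Dectin-1 group, the inhibitory receptor *Clec12a* was at 427 and 507 CPM and the beta-glucan receptor *Clec7a* at 136 and 128 CPM. *Asgr1*, *Clec4f* and *Cd207* had no UMI in any cell. Of the 12 that reached 20 CPM in the cells outside the *Fcna*-high cluster, 1 was higher in it (*Colec12*) and 5 were lower, with a median log2 ratio of −0.21, where 11.9% and 14.7% of all genes so tested were higher and lower. *Colec12* was at 156 against 48.2 CPM there. The lower genes included *Clec4b1* at 81.1 against 257 CPM and *Clec12a* at 177 against 497 CPM. *Cd72* had no UMI in the cluster, at least 5.38-fold lower than its 48.5 CPM elsewhere by the floor of 3 counts.

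Signalling partners of these receptors were listed as well. *Fcer1g*, the adaptor of Dectin-2, had 3043 CPM in YFP− against 3040 CPM in YFP+ cells, and *Tyrobp* had 2764 and 2578 CPM. None of the 8 partners that reached the mean passed 1.5-fold between the libraries. In the *Fcna*-high cluster *Syk*, the kinase downstream of these adaptors, was at 93.1 against 55.5 CPM, while *Fcer1g* was at 2863 against 3048 CPM and *Tyrobp* at 2430 against 2635 CPM.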

How the data were processed

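The authors deposited untransformed UMI counts for every gene in every barcode, made with cellranger from 3′ droplet reads mapped to GRCm38/mm10, with no normalization and no filter on cells. The submitters' processing notes name Cell Ranger 3.0.2 and Seurat 2.2.0, and the release of the gene annotation is not given in the sources used here. Cells were barcodes with at least 500 UMIs and 200 genes. Counts were summed per library, cluster or split and given as CPM with exact Poisson intervals. Log2 ratios used a pseudocount of 1 CPM, with exact conditional binomial intervals, and shares had exact Clopper-Pearson intervals, all at 95% and for counting error only. A ratio of at least 1.5-fold among genes with a mean of at least 20 CPM (100 CPM in splits of cells) was counted as a size, with no test. Leiden clusters were made in scanpy 1.11.5 (2000 variable genes, 20 components, 20 neighbours, resolution 0.8, seed 0) without the *Cd209* and 4 other lectin genes. Doublets were kept, because Scrublet marked only 3 YFP− and 0 YFP+ cells and is taken not to have worked. The log2 ratios, their intervals and the thinning were tested on simulated data. The simulated ratios held counting error only, so the test does not cover uneven spread over cells. Intervals of levels and shares were not simulated. The files hold no column outside the 2 libraries. The lectins, gene lists and alternatives were chosen with earlier results of these data known, and the named genes are the lectins, the genes of the lists and the leading genes of the *Fcna*-high cluster. Gene positions and transcripts came from GENCODE M21 (GRCm38) and upstream windows from RefSeq (GRCm38.p6).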

Additional observations from a re-analysis of the deposited data

How the results depend on the processing

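The libraries differ by *Clec10a* in the same direction under each of 12 alternatives and 1 added after seeing the data (log2 ratio −0.95 to −0.64). Dropping the minimum CPM could not change this ratio. Setting the median log2 ratio to 0 or leaving out the few cells marked by Scrublet could hardly do so. The count of lectins lower in YFP+ cells changed from 2 to 1 with cells called at 1000 UMIs, with the top barcodes in the numbers the study captured, with 10% free RNA removed, without cells marked by Scrublet and without the *Fcna*-high cluster. In these 5 settings *Clec4n* still had log2 ratios of −0.83 to −0.64, beyond 1.5-fold, but its mean, 20.1 CPM as reported, was under the limit of 20 CPM. With no minimum CPM, 1 lectin (*Cd209b*) was higher and 3 were lower in YFP+ cells, with *Cd209g* added to the lower ones. Over all genes, 1435 were then higher and 2664 lower. Thinning to 500 UMIs gave 328 genes higher and 630 lower, against 85 and 319. *Cd209b* went from 0.65 to −0.36 with equal weight for each cell and to 1.22 with cells called at 1000 UMIs. *Cd209f* went from −0.35 to 0.45 with thinning, which was a single random draw. The *Fcna*-high cluster held 126 cells at resolution 0.4, 270 at 1.2 and 123 with the listed lectins and scavenger genes also left out, against 191, and the log2 ratio of the summed *Cd209* genes there was 4.52, 3.32 and 4.48, against 3.93. Among the other listed lectins 3 were higher there with the minimum on the mean of cluster and other cells and 1 with the minimum on the other cells, because *Asgr2* and *Thbd* reach 20 CPM only through the cluster. *Mgl2* in YFP− cells with a *Cd209* UMI changed from 0.29 to −0.090 after thinning to 1000 UMIs. The causes of the other changes were not tested. No paired analysis was possible because there is 1 library per group and no test was made. Single libraries, pooled mice and rare UMIs limit what can be said about origin, and a difference within the intervals was not detectable at this depth.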
